A study of Mus musculus with 12 samples.

Results

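Gene expression in the fetal mouse lung was compared between embryonic day 17.5 (E17.5) and embryonic day 18.5 (E18.5), the last day before birth, on 4 of the 12 arrays of the study. The 4 were chosen by tissue and age alone, as the lung arrays of these stages, with 1 array at each stage for each of 2 kinds of mother. All of the fetuses were heterozygous (Abcb11+/-) on the C57BL/6 background. The first pair of arrays came from WT females mated with Abcb11-/- males and the second pair from Abcb11-/- females mated with WT males. Abcb11 encodes the bile salt export pump of the liver, so the second pair developed in mothers that lack this pump in every cell. No fetus received a treatment, and the labels name a single mouse for each array. A legend of the study gives several animals per mother at E18.5 and N0 for expression analysis that included Q-PCR, without saying whether lungs were pooled on the arrays. The difference of log2 values, E18.5 minus E17.5, was taken within each genotype of the mother. Genes were followed where both genotypes gave the same direction. Below, "mother" stands for that genotype and not for a single animal. The labels name no dam or litter, so stage cannot be told apart from litter. A log2 difference of 1 is a 2-fold difference. The newborn (N0) lung arrays, 1 per mother, are given where they place a value, and they entered the test.

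In the last days of gestation the mouse lung is in its saccular stage. Distal tubules widen into sacs, the epithelium separates into flat type I cells, across which gas will pass, and cuboidal type II cells, which store and secrete surfactant, the lipid and protein film that keeps air spaces open. Division of mesenchymal and epithelial progenitors slows, the capillary bed comes to lie against the epithelium, and the epithelium turns from secreting liquid to absorbing it. Resident macrophages and the secretory cells of the airways mature over the same days.

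The lung label fitted most of the markers. Sftpc, the surfactant protein of type II cells, read 13.23 to 13.38 on the 4 arrays on the log2 scale, the matrix protein gene Eln 11.14 to 11.95, the club cell gene Scgb1a1 9.05 to 12.01, the endothelial gene Pecam1 8.60 to 9.27, Aqp5 of type I cells 7.35 to 9.51 and Foxj1 of ciliated cells 6.36 to 7.09. The epithelial factor Nkx2-1 read only 3.53 to 3.71 on its 1 named probe set, close to the array medians of 3.63 to 3.68. Abcb11 itself read 2.96 to 3.00, below those medians, on every one of the 4 arrays. The array of E17.5 fetuses of the Abcb11-/- mother also carried transcripts of other tissues. Alb, the plasma albumin of liver, read 13.01 there against 9.05, 8.69 and 8.74 on the other 3 arrays, and Acta1, the actin of skeletal muscle, read 10.60 against 4.73, 6.44 and 5.79. All 16 measured genes of a hepatocyte list and all 20 of a skeletal muscle list were higher on that array than on the E17.5 array of the WT mother. Of all 17097 genes, 7762 were higher there and 9329 lower. Among 5870 genes whose brightest of the 4 arrays reached log2 7, the mothers were 2-fold apart for 109 genes at E17.5 and for 13 genes at E18.5. Both the X-inactivation transcript Xist (8.34 to 10.19) and the Y-linked gene Eif2s3y (6.37 to 7.81) were read on each array. Each array thus held transcripts of both sexes, although the labels name a single mouse. How many fetuses each array holds is not stated.

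With 1 array per stage and mother, stage and mother were the terms of a limma fit to the 6 lung arrays, which left 2 residual degrees of freedom. At a Benjamini-Hochberg adjusted p under 0.05, 9 of 17097 genes rose from E17.5 to E18.5 (0.0526% of the genes tested) and 1 fell (0.00585%). The 9 that rose were Chil1, Lcn2, Spink5, Cblif, C6, Lims2, Scn3b, Lgals3bp and Tmem71, and the 1 that fell was Hbb-y. At an unadjusted p under 0.05 there were 1201 higher and 990 lower genes. All 10 had the same direction with both mothers. The calls rest on few arrays: none was made without the E18.5 array of either mother and 1 without either N0 array, whereas 134 genes were called higher and 173 lower without the E17.5 array with an Abcb11-/- mother, and 35 and 106 without that of the WT mother. Values below are therefore given array by array, and "rose" and "fell" are kept for the 10 genes.

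A second view counted the genes that were at least 2-fold apart the same way with both mothers, as a description without a test. Among the 5870 genes at log2 7 or more, 50 were at least 2-fold higher at E18.5 (0.852%) and 17 were 2-fold or more lower (0.29%). Of the 10 genes called by limma, 8 were among these 67, and C6 and Lgals3bp stayed below log2 7. These genes were chosen by the differences that follow, which describe single arrays. The 50 higher genes had a median difference of 1.93 with a WT and 1.36 with an Abcb11-/- mother, and 40 of them had the larger difference with the WT mother. The 17 lower genes had medians of -1.95 and -1.21, and 15 of them had the larger difference with the WT mother. At E17.5, on the array with an Abcb11-/- mother, 41 of the 50 read above the E17.5 array of the WT mother and 14 of the 17 read below it. The same E17.5 values entered the differences that chose these genes, so these counts are not independent of the choice.

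**Figure D1:**
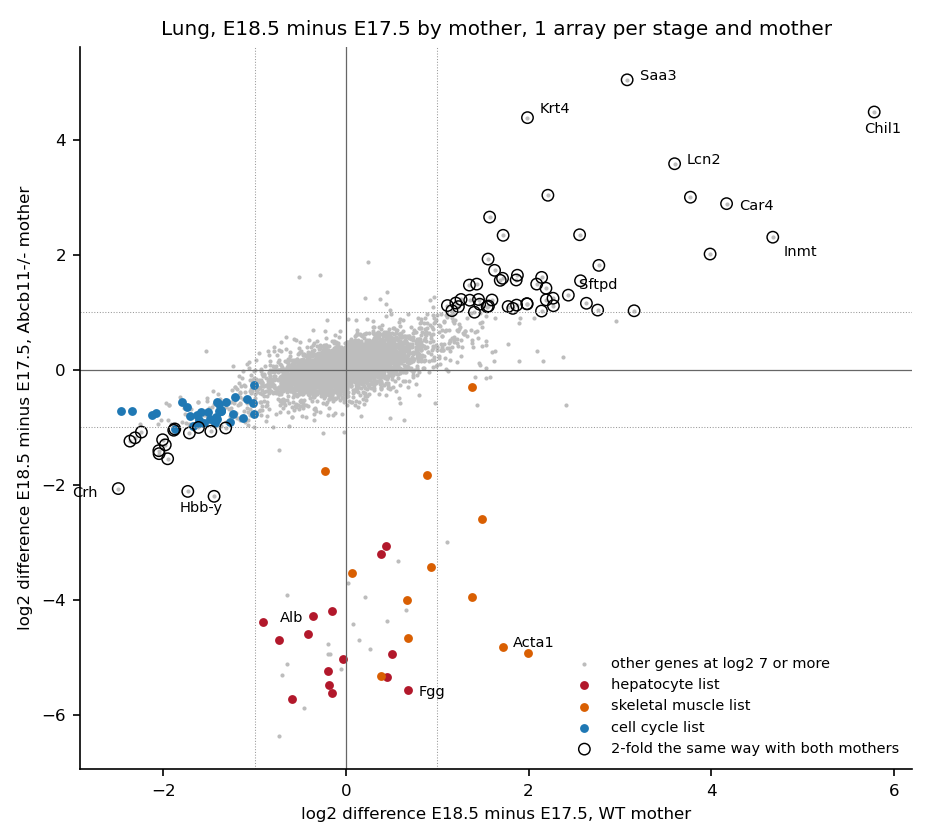
Difference of log2 values, E18.5 minus E17.5, with a WT mother (horizontal axis) and with an Abcb11-/- mother (vertical axis) for the 5870 genes whose brightest of the 4 arrays reached log2 7; each point is 1 gene and dotted lines mark 2-fold. The 50 higher and 17 lower genes with both mothers (open circles) lie in the upper right and lower left corners, cell cycle genes (blue) lie at the lower left, and hepatocyte (red) and skeletal muscle genes (orange) lie mostly low on the vertical axis only.

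The WT mother alone gave 161 genes 2-fold or more higher and 153 lower, against 61 and 64 with the Abcb11-/- mother alone. Of the 161, 149 (92.5%) were also higher at E18.5 with an Abcb11-/- mother, 96 of them by at least 1.5-fold, and of the 153, 148 (96.7%) were also lower, 94 by at least 1.5-fold. Over all 5870 genes the direction was shared by 68.5%.

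The called genes with the largest changes were Chil1, Lcn2 and Spink5. Chil1, a secreted chitinase-like protein, read 4.80 at E17.5 and 10.59 at E18.5 with a WT mother, and 6.70 and 11.18 with an Abcb11-/- mother. Both E18.5 arrays lay far above both E17.5 arrays, and Chil1 rose 35.1-fold on average (log2 change 5.13 ± 0.33 SE, limma adjusted p = 0.031). Lcn2, the siderophore-binding lipocalin, read 5.25 and 8.85 with a WT mother and 6.40 and 9.98 with an Abcb11-/- mother. It rose by 3.59 ± 0.22 (limma adjusted p = 0.031), by nearly the same amount with each mother (3.60 and 3.58). Spink5, a serine protease inhibitor of epithelia, read 3.80 and 7.58, and 5.16 and 8.16, and rose by 3.39 ± 0.25 (limma adjusted p = 0.040).

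Cblif, the cobalamin-binding intrinsic factor, read 4.57 and 7.13 with a WT mother and 4.76 and 7.11 with an Abcb11-/- mother. The mothers agreed at both stages and it rose by 2.45 ± 0.16 (limma adjusted p = 0.031). C6, a component of the complement membrane attack complex, rose from 3.60 to 6.27 and from 4.15 to 6.32. Hc, which encodes complement component C5, was also higher at E18.5 (7.80 and 10.57, 8.39 and 10.20), at a limma adjusted p of 0.067 that missed the threshold. Lgals3bp, a secreted glycoprotein that binds galectins, rose from 5.12 to 6.74 and from 5.26 to 6.92. Lims2, an adaptor of integrin adhesions, rose from 5.65 to 7.53 and from 5.49 to 7.14. Scn3b, a sodium channel beta subunit, rose from 6.76 to 8.63 and from 6.83 to 8.39. Tmem71 rose from 5.51 to 7.20 and from 5.19 to 6.74. For each of these genes the E18.5 arrays of both mothers lay above both E17.5 arrays.

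Other genes among the 50 did not pass the test, as was the case for each of those that follow. Saa3, a serum amyloid A of acute-phase responses made outside the liver, read 3.72 and 6.80 with a WT mother and 4.33 and 9.37 with an Abcb11-/- mother, so the mothers stood 2.56 apart at E18.5. Inmt, a methyltransferase of indole amines, read 4.44 and 9.11, and 6.82 and 9.12. The mothers met at E18.5 and were apart at E17.5, as they were for Pon1, a lactonase (4.33 and 8.32, 6.08 and 8.09). The part of the liver transcripts on the E17.5 array with an Abcb11-/- mother in these gaps was not tested. Vnn1 and Vnn3, pantetheinases that recycle pantothenate, were higher by 1.59 and 1.57 or more with each mother. Retnla, a small secreted protein, read 9.98 and 11.61, and 9.78 and 11.51. Of the 50 higher genes, 46 were on both N0 arrays also above both E17.5 arrays, and the other 4 were Krt13, Krt4, Steap4 and Scd1. The same E17.5 values chose these genes, so this count is not independent of the choice. The share over all genes was not counted.

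**Figure D2:**
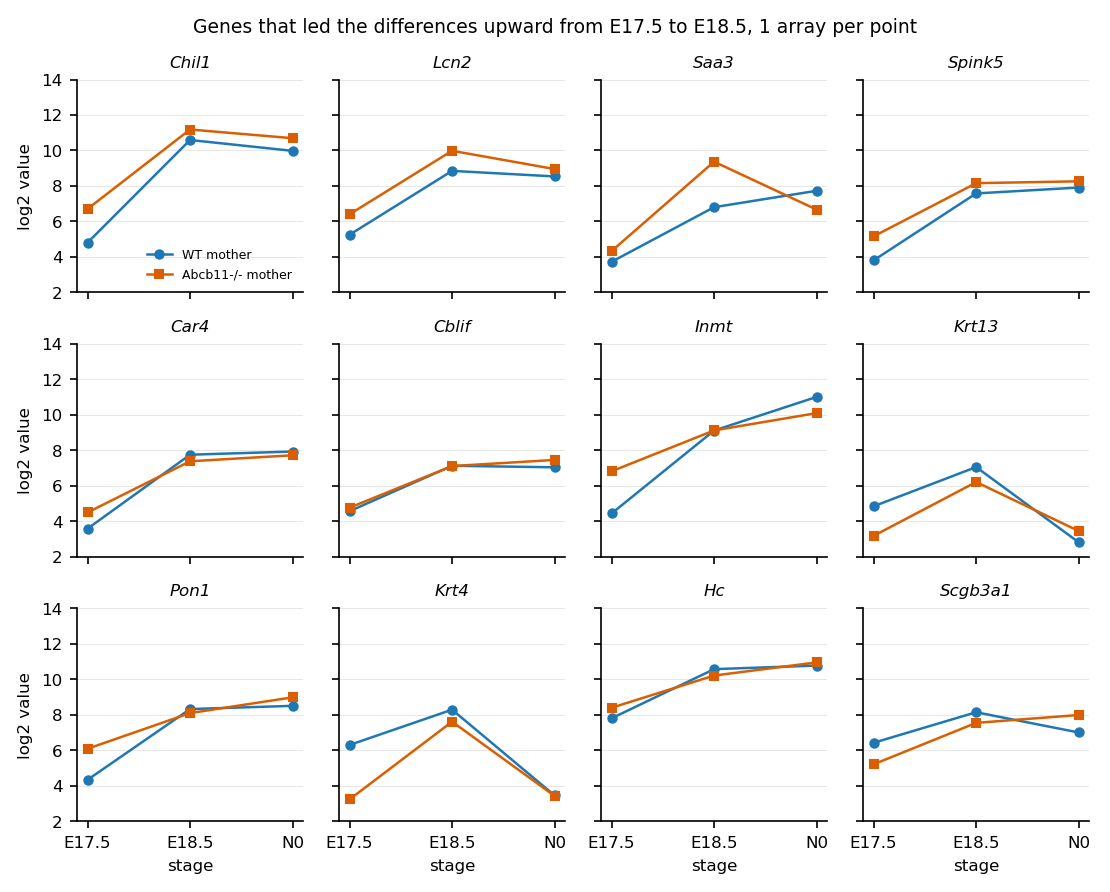
Log2 values at E17.5, E18.5 and N0 of the 12 genes with the largest difference upward with both mothers; blue circles are arrays of a WT mother and orange squares arrays of an Abcb11-/- mother, 1 array per point. Chil1 went from 4.80 and 6.70 to 10.59 and 11.18, whereas Krt4 and Krt13 were highest at E18.5 and read 2.82 to 3.45 at N0.

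Promoters of these genes were read for letters known to bind C/EBP factors, which act in epithelial and myeloid cells. In RefSeq promoters (build GRCm38.p6), the 250 bases before the start were searched on both strands for TTGCNNAA. The letters were found in 11 of 38 promoters of the 50 higher genes (36 genes matched), 28.9%, against 9.6% of all 32851 promoters, and in 1 of 17 promoters of the 17 lower genes. The genes with a match were Lcn2, Saa3, Pon1, Retnla, Vnn3, Plac8, AU040972, Steap4, Liph, H2-T23 and S100g. The 3 of them with the largest differences are shown, 5′ to 3′ on the gene's strand, with the matched letters in capitals. They lie at chr2:32387740-32387989, minus strand, at chr7:46715677-46715926, minus strand and at chr6:5193947-5194196, minus strand.
Lcn2: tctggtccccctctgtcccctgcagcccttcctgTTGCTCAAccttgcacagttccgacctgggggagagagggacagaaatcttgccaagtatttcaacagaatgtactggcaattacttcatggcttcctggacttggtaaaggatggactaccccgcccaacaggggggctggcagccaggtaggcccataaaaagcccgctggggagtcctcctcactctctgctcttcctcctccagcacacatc
Saa3: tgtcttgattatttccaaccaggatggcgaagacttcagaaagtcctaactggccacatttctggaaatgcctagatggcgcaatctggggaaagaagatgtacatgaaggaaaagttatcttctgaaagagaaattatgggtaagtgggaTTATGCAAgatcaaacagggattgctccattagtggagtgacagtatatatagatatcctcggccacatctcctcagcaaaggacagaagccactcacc
Pon1: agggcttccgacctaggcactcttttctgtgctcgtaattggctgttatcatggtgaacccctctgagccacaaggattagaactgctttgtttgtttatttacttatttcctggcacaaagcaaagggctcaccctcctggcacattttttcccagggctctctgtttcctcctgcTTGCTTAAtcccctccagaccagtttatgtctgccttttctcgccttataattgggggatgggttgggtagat
A match describes the letters only; binding was not measured.

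Surfactant and type II cell genes were mostly higher at E18.5, by modest amounts. Of 13 measured genes, 11 were higher with both mothers by any amount, as were 31.8% of all genes. By at least 1.5-fold 2 of them were higher, where 319 of all 17097 genes (1.87%) were 1.5-fold higher and 232 (1.36%) were 1.5-fold lower with both mothers. The median difference was 0.53 with a WT and 0.25 with an Abcb11-/- mother, against -0.01 and 0.03 over all genes. The shares over all genes apply to the lists below as well. They include dim genes: 5870 of the 17097 reached log2 7, and 68.5% of these shared a direction. The shares at 1.5-fold or by any amount were not taken among those bright genes alone. Sftpd, the collectin surfactant protein D, read 9.02 and 11.45 with a WT mother and 10.43 and 11.73 with an Abcb11-/- mother. The E18.5 arrays nearly met, and the E17.5 arrays stood 1.42 apart. S100g, a calcium-binding protein of the distal epithelium, read 6.28 and 9.04, and 7.95 and 8.99. Neither passed the test (limma adjusted p = 0.17 for Sftpd and 0.22 for S100g).

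Several of the other genes of the list were bright at E17.5 already, whereas Napsa, an aspartic protease, and Pgc, progastricsin, read between 2.87 and 4.47 on the 4 arrays. Sftpc read 13.23 and 13.38 with a WT mother and 13.25 and 13.35 with an Abcb11-/- mother, 0.17 and 0.15 below the brightest gene of the E18.5 arrays. Sftpa1, the other collectin, read 10.76 and 11.99, and 11.78 and 12.20. Abca3, which loads phospholipid into lamellar bodies, read 10.08 and 10.61, and 10.36 and 10.61. Lpcat1, which remodels surfactant phosphatidylcholine, read 10.43 and 11.10, and 11.03 and 11.08. For Lpcat1 and Abca3 the E17.5 array with an Abcb11-/- mother lay nearer to the E18.5 arrays than that of the WT mother did. Etv5, a factor of the distal progenitors that the list also holds, was lower with both mothers (-0.58 and -0.12). Of the list, 11 genes read higher at E17.5 with an Abcb11-/- mother than with a WT mother, as did 7762 of all 17097 genes. No member was called in either direction.

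Of 26 measured genes of lipid synthesis and handling, 2 were at least 1.5-fold higher with both mothers and none was lower. Scd1, the desaturase that makes oleate and palmitoleate, read 9.05 and 11.69 with a WT mother and 10.71 and 11.86 with an Abcb11-/- mother. Fasn, the fatty acid synthase, read 9.76 and 10.64, and 10.03 and 10.64. Both E18.5 arrays lay above both E17.5 arrays for each gene, without passing the test. Lpl, the lipoprotein lipase, was higher by 1.49 with a WT and by 0.41 with an Abcb11-/- mother.

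Type I cell genes were higher in the main. Of 10 measured genes 9 were higher with both mothers, as were 31.8% of all genes, and 3 of them by at least 1.5-fold. The medians were 0.75 and 0.43. Aqp5, the apical water channel, read 7.35 and 9.50 with a WT mother and 8.49 and 9.51 with an Abcb11-/- mother, and was higher still at N0 (10.43 and 10.09). Clic5, a chloride intracellular channel protein, read 9.12 and 10.37, and 9.48 and 10.23. Gprc5a, an orphan receptor, read 9.57 and 10.52, and 9.71 and 10.44. Ager, the receptor for advanced glycation end products and a mark of type I cells, read 12.17 and 12.85, and 12.28 and 12.68. Hopx, a homeodomain protein of these cells, differed by 0.11 with each mother. The exception was Igfbp2, an insulin-like growth factor binding protein, which read 8.97 and 7.01 with a WT mother and 8.73 and 7.19 with an Abcb11-/- mother, so that both E18.5 arrays lay below both E17.5 arrays (limma adjusted p = 0.063).

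Among 15 genes of liquid transport, 5 were at least 1.5-fold higher with both mothers and none was lower. They were the alpha, beta and gamma subunits of the epithelial sodium channel, through which liquid is absorbed, the chloride channel Cftr, and Aqp5. Scnn1a read 6.69 and 7.68 with a WT mother and 6.50 and 7.37 with an Abcb11-/- mother. Scnn1b read 4.96 and 5.62, and 4.87 and 5.76. Scnn1g read 7.86 and 8.74, and 7.91 and 8.71. The sodium channel subunits showed nearly the same step with each mother, without a gap between the E17.5 arrays, although none passed the test. Sgk1, a kinase that raises channel activity and a glucocorticoid target, was nearly level between these stages (8.46 and 8.56, 8.69 and 8.57) and read 10.69 and 10.99 at N0. Of 16 measured genes of a glucocorticoid list, none was 1.5-fold higher with both mothers. Angptl4, an inhibitor of lipoprotein lipase, was the 1 that was 1.5-fold lower (7.41 and 5.95, 6.78 and 6.14). Beside targets the list holds the receptor Nr3c1 and the steroid enzymes Hsd11b1 and Hsd11b2.

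**Figure D3:**
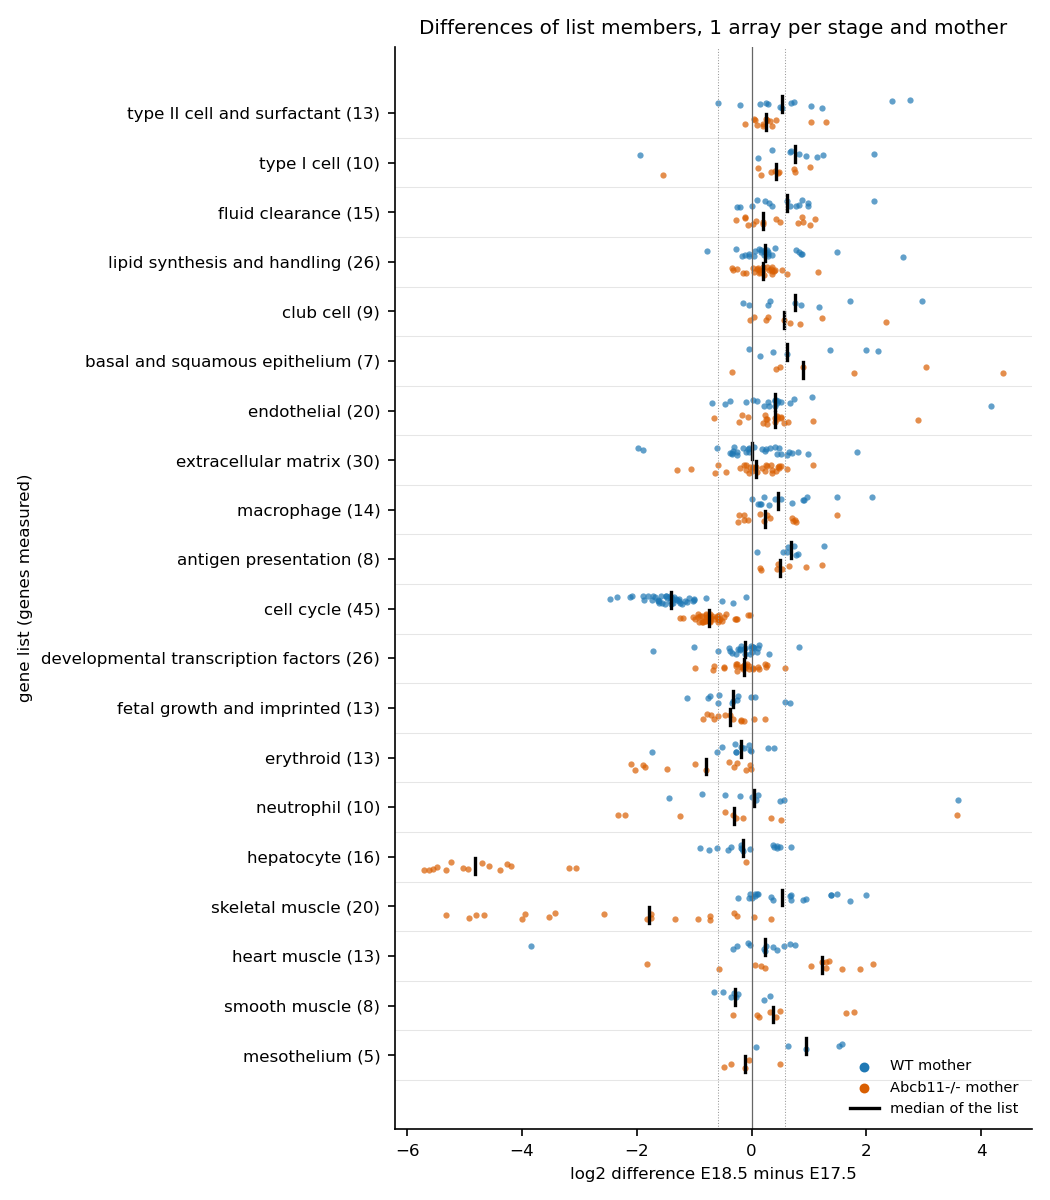
Difference of log2 values, E18.5 minus E17.5, for the measured members of 20 gene lists; blue points are values with a WT mother, orange points values with an Abcb11-/- mother, black bars the medians and dotted lines mark 1.5-fold. The 45 cell cycle genes lie left of 0 with both mothers, and most hepatocyte and skeletal muscle genes lie far left with the Abcb11-/- mother, not with the WT mother.

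Of 9 genes of club cells, the secretory cells of the conducting airways, 3 were at least 1.5-fold higher with both mothers, and none passed the test. Scgb3a2 (0.32 and -0.02), Bpifa1 (-0.05 and 0.04) and Upk3a (-0.15 and 0.67) did not keep 1 direction. Scgb1a1, the club cell secretoglobin, read 9.05 and 12.01 with a WT mother and 11.00 and 11.85 with an Abcb11-/- mother, and its E17.5 arrays stood 1.95 apart. Scgb3a1, a secretoglobin of the upper airways, read 6.41 and 8.14, and 5.20 and 7.54. The third was Reg3g, an antibacterial lectin (5.86 and 6.72, 5.59 and 6.82). Of 12 ciliated cell genes none was 1.5-fold apart in one direction with both mothers, and their medians were 0.27 and -0.07.

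Krt4 and Krt13, keratins of stratified squamous epithelium, were also among the 12 largest differences upward. Krt4 read 6.29 and 8.28 with a WT mother, then 3.22 and 7.60 with the Abcb11-/- mother, and 3.45 and 3.42 at N0. Krt13 read 4.84 and 7.05, 3.18 and 6.21, and 2.82 and 3.45 at N0. Both were near the array medians on the N0 arrays and on the E17.5 array with an Abcb11-/- mother. Of the 7 measured members of the basal and squamous list, 3 were 1.5-fold higher with both mothers, the third being the basal cell keratin Krt5 (3.81 and 5.18, 2.95 and 4.74). Sprr1a, a cornified envelope protein, read between 3.43 and 3.85 on the 4 arrays. The other 2 probe sets of Krt13 read at most 3.66 on the 4 arrays and differed by 0.32 or less between stages. The part that tissue of the trachea or oesophagus plays in these values was not tested.

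Of 20 measured endothelial genes, 14 were higher with both mothers by any amount, as were 31.8% of all genes, with medians of 0.40 and 0.40, but 1 was 1.5-fold higher and 1 was 1.5-fold lower with both, and none passed the test. Car4, the carbonic anhydrase of the alveolar capillary surface, read 3.58 and 7.75 with a WT mother and 4.49 and 7.38 with an Abcb11-/- mother. It went from near the array median to well above it, by 3.53 ± 0.32 on average, and missed the test narrowly (limma adjusted p = 0.052). Pecam1 and Cdh5, adhesion molecules of all endothelium, were higher by 0.40 and 0.40 with a WT mother and by 0.41 and 0.45 with an Abcb11-/- mother. The gene lower with both was Aplnr, the apelin receptor (10.59 and 9.90, 10.54 and 9.89). Plvap, the diaphragm protein of fenestrated endothelium, went opposite ways with the mothers (-0.37 and 0.27). In whole tissue, more cells of a type and more RNA per cell cannot be told apart, here and in every list.

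Of 30 measured matrix genes, 1 was at least 1.5-fold higher with both mothers and 2 were lower. Col4a3, a collagen chain of the alveolar basement membrane, read 6.46 and 8.29 with a WT mother and 7.01 and 8.07 with an Abcb11-/- mother. Its partner chain Col4a4 was higher by 0.99 and 0.35, and Eln, the elastin gene, by 0.81 and 0.47. Fbn2, a fibrillin of fetal microfibrils, read 10.67 and 8.79, and 9.89 and 8.85. Vcan, a large proteoglycan of embryonic matrix, read 9.28 and 7.30, and 8.58 and 7.28. The E18.5 arrays met for both genes. The list's median stayed near 0 (0.00 and 0.08).

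All 45 measured genes of the cell cycle read lower at E18.5 with both mothers, as did 28.3% of all genes, 31 of them by at least 1.5-fold with both, 42 with a WT mother alone and 33 with an Abcb11-/- mother alone. Over all 17097 genes, 1155 (6.76%) were 1.5-fold lower with a WT and 617 (3.61%) with an Abcb11-/- mother, and 987 (5.77%) and 732 (4.28%) were 1.5-fold higher. The median difference of the list was -1.41 with a WT and -0.74 with an Abcb11-/- mother. No member passed the test, at an unadjusted p under 0.05 in 40 of the 45. Of the 12 alternatives of the fit, 10 called no member lower, among them the fit without the E17.5 array of the WT mother. The exceptions were the trended and robust prior, with 12 members called lower, and the fit without the E17.5 array with an Abcb11-/- mother, with 33, which leaves E17.5 with 1 array.

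Mki67, the proliferation antigen, read 9.69 and 8.37 with a WT mother and 9.22 and 8.66 with an Abcb11-/- mother. Top2a, the topoisomerase that untangles chromosomes, read 9.57 and 8.30, and 9.17 and 8.27. Cdk1, the kinase that drives entry into mitosis, read 9.33 and 7.96, and 8.70 and 7.99. Each E18.5 value lay below each E17.5 value. Mcm5, a subunit of the replicative helicase, read 7.05 and 4.92, and 6.36 and 5.57. Bub1, a kinase of the spindle checkpoint, read 8.48 and 6.61, and 7.79 and 6.77, and was the 1 member of the list among the 17 genes at least 2-fold lower with both mothers. Aurkb, a kinase of chromosome segregation, Ccnb2, a mitotic cyclin, and Plk1, a mitotic kinase, were lower by 0.72, 0.85 and 0.74 or more with each mother. Of the 45 genes, 43 read lower on the E17.5 array with an Abcb11-/- mother than on that of the WT mother. So did 9329 of all 17097 genes. The median gap of the list was -0.58. At E18.5 the median gap was 0.12.

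Several of the 12 largest differences downward outside the list also belong to dividing cells. Melk, a kinase of proliferating cells, read 7.17 and 5.12 with a WT mother and 6.56 and 5.11 with an Abcb11-/- mother. Hells, a chromatin remodelling helicase, read 7.14 and 4.83, and 6.77 and 5.59. Cdca5, which holds sister chromatids together, read 7.72 and 5.48, and 7.08 and 5.99. Fignl1, which acts in recombination repair, Cenpk, a kinetochore protein, and Trip13, an ATPase of the spindle checkpoint, were lower by 1.10 or more with each mother. On the brightest probe set of each, both E18.5 arrays lay below both E17.5 arrays. A dimmer probe set of Hells differed by -1.62 with a WT and 0.09 with an Abcb11-/- mother, and a dimmer one of Trip13 by -2.01 and 0.13.

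**Figure D4:**
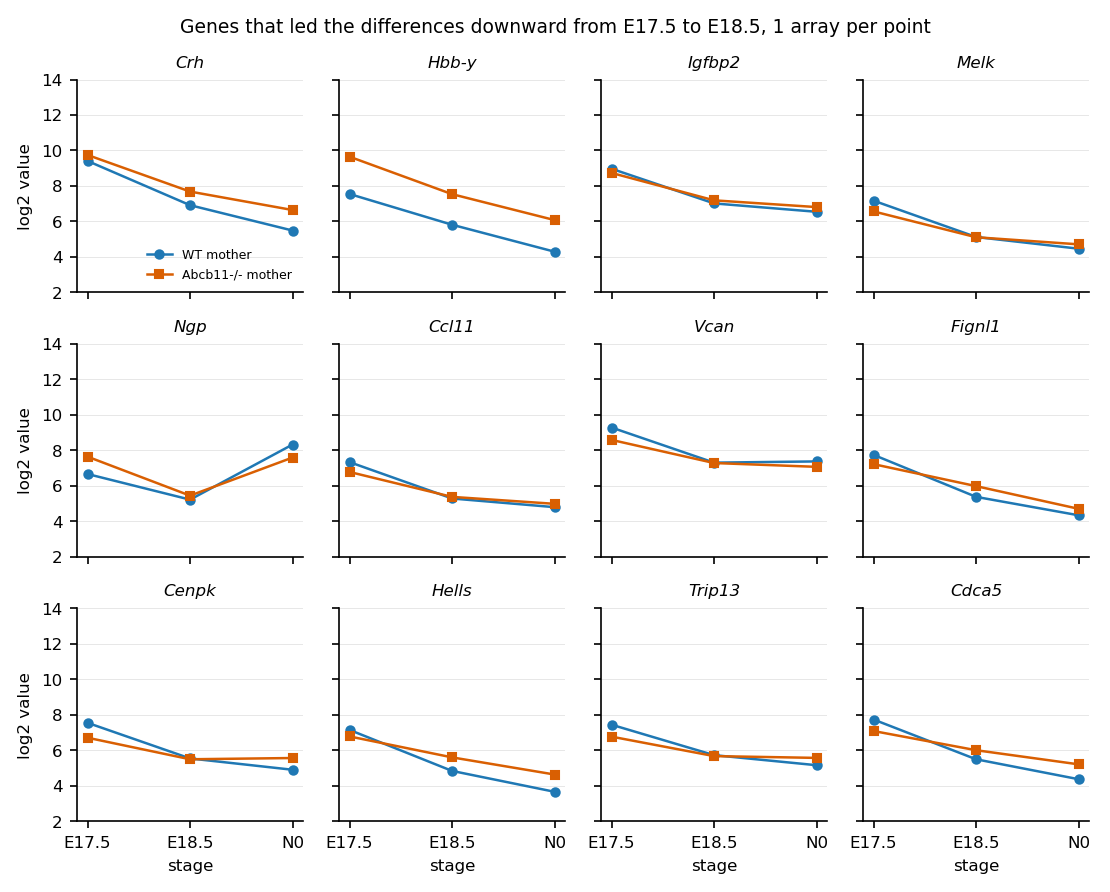
Log2 values at E17.5, E18.5 and N0 of the 12 genes with the largest difference downward with both mothers; blue circles are arrays of a WT mother and orange squares arrays of an Abcb11-/- mother, 1 array per point. Ngp is the 1 of them whose N0 values (8.32 and 7.59) were not below both E17.5 values, which also entered the choice of these genes.

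The promoters of the cell cycle list were searched for letters chosen for this description. The counts for the list describe its members and do not depend on the array values. They are therefore no support for the difference between the stages. CCAAT, the letters bound by NF-Y, was found on either strand in 32 of 40 promoters of 37 matched genes (80%), against 33.8% of all 32851 promoters. The CHR letters TTTGAA or TTCGAA, through which cell cycle repressor complexes act, were found in 11 of the 40 (27.5%) against 17.1%. Both occurred together in 11 of the 40 (27.5%) against 6% of all promoters. Among the 17 genes at least 2-fold lower, CCAAT was found in 10 of 17 promoters. The promoters with both motifs belonged to Mcm2, Mcm7, Ccnb2, Cdc20, Top2a, Cdk1, Kif11, Prc1, Ube2c, Mki67 and Bub1b. The 2 shown, of a replication and a mitosis gene, have CCAAT (or ATTGG on the other strand) and the CHR letters in capitals. They lie at chr6:88898781-88899030, minus strand and at chr9:70421555-70421804, minus strand.
Mcm2: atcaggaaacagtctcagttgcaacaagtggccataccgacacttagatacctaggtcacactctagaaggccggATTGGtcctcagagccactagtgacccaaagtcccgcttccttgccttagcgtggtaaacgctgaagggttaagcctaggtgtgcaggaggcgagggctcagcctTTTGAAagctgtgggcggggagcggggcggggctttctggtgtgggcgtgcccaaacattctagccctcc
Ccnb2: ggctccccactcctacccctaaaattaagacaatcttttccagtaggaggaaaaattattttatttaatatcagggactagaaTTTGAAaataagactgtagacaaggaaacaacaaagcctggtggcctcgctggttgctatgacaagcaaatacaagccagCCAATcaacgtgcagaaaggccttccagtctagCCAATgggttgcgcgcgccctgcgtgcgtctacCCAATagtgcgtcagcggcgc
Mcm2, another subunit of the replicative helicase, read 7.81 and 6.11 with a WT mother and 7.47 and 6.67 with an Abcb11-/- mother.

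Most transcription factors of lung development were within 1.5-fold between the stages. Of 26 measured, none was 1.5-fold higher with both mothers, and 1, Foxp2, a repressor of the distal epithelium, was 1.5-fold lower (10.34 and 9.32, 9.84 and 8.86). Foxa1 differed by -0.01 and -0.17, and Foxa2 by 0.00 and -0.48. Cebpa, which type II cells need to mature, was higher by 0.83 with a WT and by 0.25 with an Abcb11-/- mother. Mycn, the MYC family member of progenitors, read 6.79 and 5.06 with a WT mother but 5.87 and 5.38 with an Abcb11-/- mother. Of 22 signalling genes, none was 1.5-fold apart the same way with both mothers. Vegfa, the endothelial growth factor, was higher by 1.14 and 0.33.

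Of 13 measured genes of fetal growth, 10 were lower with both mothers by any amount, as were 28.3% of all genes, and none passed the test. Igf2, the fetal insulin-like growth factor, read 11.09 and 10.33 with a WT mother and 11.07 and 10.30 with an Abcb11-/- mother. The mothers agreed at each stage. Slc38a4, an imprinted amino acid transporter, was lower by 1.13 and 0.85. These were the 2 members at least 1.5-fold lower with both mothers, and none was higher. Crh, the corticotropin-releasing hormone, led the 17 lower genes when ranked by the smaller of the differences with both mothers. It read 9.41 and 6.91 with a WT mother and 9.74 and 7.68 with an Abcb11-/- mother, and then 5.49 and 6.64 at N0. Each stage lay below the one before with each mother, although the test was missed (limma adjusted p = 0.058).

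Of 14 macrophage genes, 4 were at least 1.5-fold higher with both mothers and none was lower. Lyz2, the lysozyme of macrophages and type II cells, read 10.55 and 12.64 with a WT mother and 11.17 and 12.66 with an Abcb11-/- mother. Cd68, a lysosomal glycoprotein, Csf1r, the receptor for macrophage growth factor, and Ctss, a cathepsin, were 0.71 or more higher with each mother. Other defining genes went opposite ways, with the mannose receptor Mrc1 at 0.16 and -0.13, F13a1 at 0.15 and -0.23, and the complement C1q chains C1qa at 0.31 and -0.22, C1qb at 0.71 and -0.14 and C1qc at 0.41 and -0.06. All 8 antigen presentation genes were higher with both mothers, as were 31.8% of all genes. By at least 1.5-fold 2 of them were higher, as were 1.87% of all genes. Cd74, the invariant chain of class II molecules, read 5.50 and 6.76, and 5.86 and 7.08, and H2-K1, a class I molecule, read 8.97 and 9.70, and 9.18 and 9.83. No member of the lymphocyte list reached log2 7 on any of the 4 arrays. Rag1, the antigen receptor recombinase, read 5.70 on the E18.5 array with an Abcb11-/- mother and 3.33 to 3.62 on the other 3.

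Of 10 measured neutrophil genes, Lcn2 was the 1 that was higher by 1.5-fold with both mothers, and Ngp and Camp, granule proteins, were lower. Ngp read 6.66 and 5.22 with a WT mother and 7.64 and 5.44 with an Abcb11-/- mother. S100a8 and S100a9, the calprotectin subunits, differed by 0.49 and 0.08 with a WT mother and by -0.32 and -0.47 with an Abcb11-/- mother. At E17.5, 8 of the 10 read higher with an Abcb11-/- mother than with a WT mother, as did 7762 of all 17097 genes. The median gap was 1.1 over the list. The part of blood and liver cells in that gap was not tested. Ccl11, the eosinophil chemokine, read 7.33 and 5.28, and 6.78 and 5.37, and Ccl6, a chemokine of myeloid cells, read 6.81 and 8.37, and 6.96 and 8.89.

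Embryonic globin was the 1 gene that fell. Hbb-y, the beta-like globin of yolk-sac red cells, read 7.54 and 5.81 with a WT mother and 9.65 and 7.54 with an Abcb11-/- mother. It fell by 1.92 on the log2 scale (SE 0.15, limma adjusted p = 0.040), and reached 4.29 and 6.08 at N0. Within each stage the array of the Abcb11-/- mother read higher, so the ranges of the stages touch at 7.54. All 3 probe sets of the gene were lower at E18.5 with both mothers. The alpha globin Hba-a1 read 13.50 to 13.57, the highest value on each of the 4 arrays, where a difference cannot be read. Of 13 erythroid genes 2 were 1.5-fold lower with both mothers, the second being the embryonic globin Hba-x (4.81 and 4.21, 6.24 and 4.35). Of the 13, 7 were 1.5-fold lower with an Abcb11-/- mother and 2 with a WT mother. Of the 13, 11 read higher at E17.5 with an Abcb11-/- mother than with a WT mother, as did 7762 of all 17097 genes. The median gap over the list was 1.13, and the part of blood and liver cells in that gap was not tested.

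Genes of neighbouring tissues showed where the mothers disagreed. With the Abcb11-/- mother 15 of 16 hepatocyte genes and 16 of 20 skeletal muscle genes were at least 1.5-fold lower at E18.5, with medians of -4.82 and -1.79. With the WT mother the medians were -0.15 and 0.53, and 3 hepatocyte genes were 1.5-fold lower and 10 skeletal muscle genes 1.5-fold higher. The 3 that were lower with both mothers were Afp, the fetal albumin, Apoa1, a lipoprotein of plasma, and F2, prothrombin. With a WT mother F2 read 3.56 and 2.83, below the array medians of 3.66 and 3.64, where a difference says little. Afp read 8.76 and 7.86 with a WT mother and 12.28 and 7.91 with an Abcb11-/- mother. In all, 32 genes were 1.5-fold higher with a WT and 1.5-fold lower with an Abcb11-/- mother, 10 of them members of these lists or of the heart list, and 11 went the other way. Of 13 heart muscle genes, 9 read lower on the E17.5 array with an Abcb11-/- mother than on that of the WT mother. So did 9329 of all 17097 genes, which is not far from the share in this list. Myl7, the atrial myosin light chain, read 9.21 and 9.45 with a WT mother and 7.69 and 9.57 with an Abcb11-/- mother, and Nppa, the atrial natriuretic peptide, read 6.58 on the E17.5 array of the WT mother and 4.10 or less on the other 3.

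**Figure D5:**
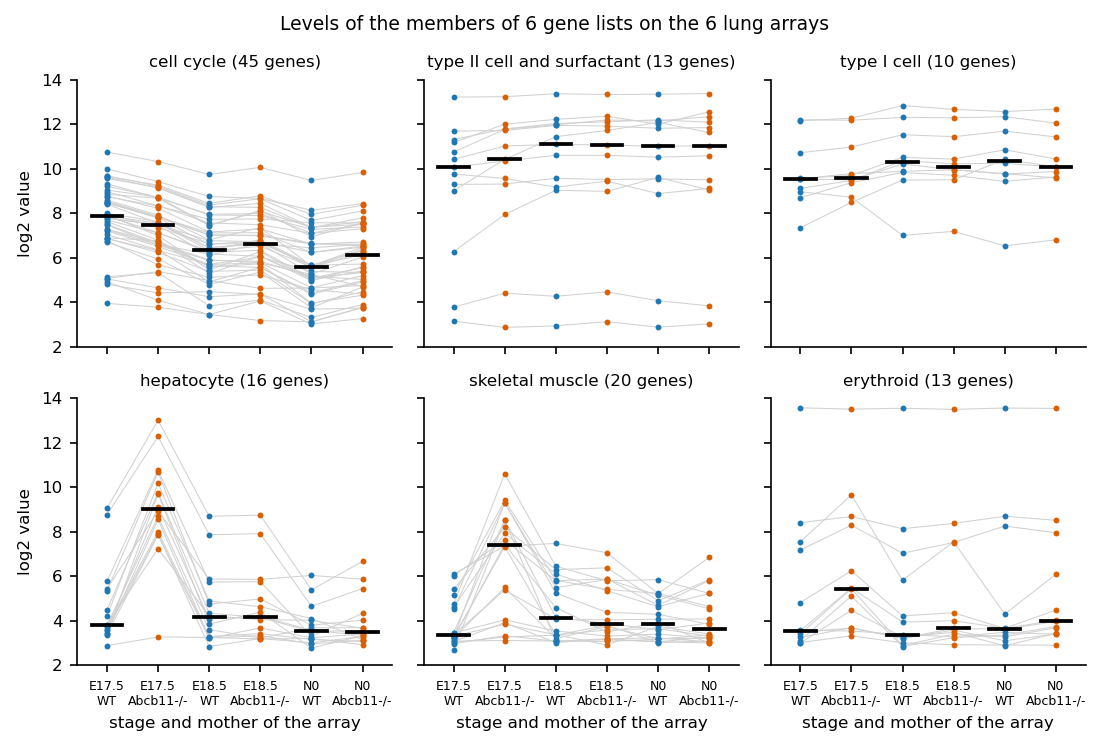
Log2 values of the members of 6 gene lists on the 6 lung arrays; blue points are arrays of a WT mother, orange points arrays of an Abcb11-/- mother, black bars the medians, and grey lines join a gene across the arrays. The median of the cell cycle genes was lower at each later stage with each mother, type II and type I cell genes were nearly level from E18.5 on, and hepatocyte and skeletal muscle genes were high on the E17.5 array with an Abcb11-/- mother.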

How the data were processed

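Lung RNA was measured on HT MG430 PM plates, microarrays with several probes for each transcript, with 100 ng as input and a kit that labels from the 3′ end. The deposited values are log2 signals of 45037 probe sets that the authors summarized with robust multiarray averaging (RMA). Partek 6.5 is among the tools in the submitters' processing notes. They were used as deposited, with medians of 3.63 to 3.68 on the lung arrays. RMA narrows differences of dim and of very bright probe sets. Precision is limited by how few arrays there are.

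Of the probe sets, 28898 had 1 gene name in the platform table, 551 had several and stayed out, and 15588 had none. The names of 28689 were updated by gene number. Each of 17097 genes was read from its probe set of highest mean over the 6 lung arrays, and 7180 genes had a choice of probe sets. Of 27 described genes with several probe sets, all of them pointed the same way with both mothers in 18.

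E18.5 and E17.5 were compared by limma 3.58.1 with lmFit and eBayes (R 4.3.3, terms for stage and mother, the 6 lung arrays, Benjamini-Hochberg adjusted p under 0.05). The model assumes that the arrays of all stages and mothers vary alike. With 1 array per stage and mother, its residual is the disagreement of the mothers over the stages. The gap between the mothers at E17.5 is part of that residual, with an SE of 0.84 for Alb and 1.56 for Acta1. No spread between like arrays or animals is estimated, so SEs and p-values do not measure replicate variation. On simulated data of this design with 17097 genes, 4% of 2-fold and 59% of 4-fold changes were recovered, with 2 false calls among 65. These rates describe the simulated data only. On the real arrays, the mothers were 2-fold apart for 109 genes at E17.5 and 13 at E18.5. Whether the rates hold there was not tested. Otherwise differences were described, with a fold of 2 for genes at log2 7 or more and of 1.5 for list members.

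Genes were named as the 12 largest differences each way shared by both mothers, the called genes, the first members and up to 4 further members with the largest shared difference of each list, lung genes the paper names, and the 5 genes furthest apart between the mothers each way. Some further list members were named after their values were seen. The members, the 33 lists (461 of 516 genes measured) and the tests were chosen with earlier results of these data known, so no list is independent support. Promoters were read from a RefSeq table (GRCm38.p6) with motifs chosen for this description. Alternatives were fewer arrays, no mother term, a trended and robust prior, a mean log2 value of at least 6, averaged probe sets, quantile normalization, median centring, other brightness minimums and each array left out. The 6 liver arrays were not used here.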

Additional observations from a re-analysis of the deposited data

Results flagged for a closer look

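These 5 results went opposite ways with the mothers, and the difference was not tested, since each rests on 1 array per stage and mother. Acta1, the skeletal muscle actin, differed by 1.72 with a WT and by -4.81 with an Abcb11-/- mother, a gap of -6.53 on the log2 scale. Tnnc2, the fast troponin C, differed by 1.99 and -4.92, a gap of -6.92, and Fgg, a fibrinogen chain made by hepatocytes, by 0.68 and -5.55, a gap of -6.23. The median of the 20 skeletal muscle genes was 0.53 with a WT and -1.79 with an Abcb11-/- mother, a gap of -2.32. The median of the 5 mesothelial genes, of cells that line the lung surface, was 0.94 and -0.12, a gap of -1.06. Msln, the mesothelial surface protein mesothelin, read 7.43 and 8.96 with a WT mother and 8.24 and 8.74 with an Abcb11-/- mother. For all 5 the E17.5 array with an Abcb11-/- mother read above that with a WT mother, as for 7762 of all 17097 genes.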

How the results depend on the processing

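No paired analysis was possible because the labels of the lung arrays carry no replicate numbers and name no dam or litter. The model holds the genotype of the mother as a term. Against 9 genes called higher and 1 lower, the 4 arrays alone gave 1 and 0, a trended and robust prior 130 and 67, a mean log2 value of at least 6 gave 36 and 9, averaged probe sets 10 and 0, and quantile normalization 0 and 0 (1292 higher and 895 lower at an unadjusted p under 0.05). Without the mother term the counts stayed at 9 and 1, with 4 of the 10 genes shared. Leaving out each array gave 0 to 134 higher and 0 to 173 lower genes, with 0 both ways without either E18.5 array (663 higher and 481 lower at an unadjusted p under 0.05 without that of the WT mother, 832 and 767 without the other). Each called gene kept its direction and was called in 4 to 8 of its alternatives, at adjusted p from 0.00028 to 0.44. Against 50 genes at least 2-fold higher and 17 lower with both mothers, a minimum of log2 6 gave 70 and 32, log2 8 gave 25 and 7, no minimum 86 and 41, averaged probe sets 39 and 13, quantile normalization 52 and 20, median centring 58 and 13, the WT mother alone 161 and 153 and the Abcb11-/- mother alone 61 and 64. With averaged probe sets, 35 of the 50 and 9 of the 17 genes were kept. The 23 lost included Bub1, Cdca5, Trip13, Hells, Cenpk, Vcan, Col4a3 and Krt13. The median of the skeletal muscle list turned from -0.72 to 0.53 with the WT mother alone. The means of 13 uncalled genes turned sign when 1 array was left out. They ranged from -4.80 to 1.71 for Acta1, -4.82 to 1.89 for Tnnc2, -5.32 to 0.45 for Fgb, -5.73 to 0.85 for Fgg, -5.39 to 0.46 for Myh8, -0.34 to 1.71 for Actg2, -0.43 to 1.53 for Edn1, -1.32 to 0.11 for Cirbp, -1.39 to 1.15 for Egr1, -0.37 to 0.28 for Plvap, -0.08 to 0.39 for Slco4a1, -0.19 to 0.01 for Foxa1 and -0.52 to 0.04 for Foxa2. The cause was not tested. With 1 array per stage and mother, no difference within a mother has a replicate.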

Other observations

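The gene groups given here had medians within 0.45 of 0 on the log2 scale with both mothers, except the mesothelial, heart muscle and sex-linked lists, and no member of them passed the test. Of 10 glycogen and 10 glycolysis genes, none was 1.5-fold apart the same way with both mothers. Of 18 antioxidant genes 1 was higher by that measure, Gpx3, the secreted glutathione peroxidase. It read 8.87 and 10.85 with a WT mother at E17.5 and E18.5, and 9.31 and 10.46 with an Abcb11-/- mother, so both E18.5 arrays lay above both E17.5 arrays. Of 10 cartilage genes 3 were at least 1.5-fold lower with both mothers, among them Col9a1, a chain of cartilage collagen (6.63 and 3.98, 5.23 and 3.84). Of 14 immediate early genes 3 were at least 1.5-fold higher with both mothers. Fos, a subunit of the AP-1 factor, was higher by 1.49 and 0.74, and Ier3, an early response gene, read 8.63 and 9.41, and 8.80 and 9.70. Egr1, a zinc finger factor of the same list, differed by -0.72 and 0.48.

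Of 8 smooth muscle genes none was 1.5-fold apart the same way, with medians of -0.30 and 0.37. Actg2, the visceral smooth muscle actin, read 7.94 and 7.66 with a WT mother and 6.27 and 7.92 with an Abcb11-/- mother. Edn1, the vasoconstrictor endothelin, read 6.81 and 6.30, and 6.38 and 7.98. Of 8 mast cell, 11 lymphocyte, 6 fat and 5 mesothelial genes none was 1.5-fold apart the same way, and of 7 neuroendocrine and nerve genes 1 was higher. Of 4 sex-linked genes 1 was lower, Kdm5d, a Y-linked demethylase (7.11 and 6.37, 6.55 and 5.16). The list's medians were -0.38 and -1.06. On the E18.5 array with an Abcb11-/- mother Xist read 10.19 and Eif2s3y 6.37, against 8.34 and 7.79 with a WT mother. The part of the mix of sexes in the Kdm5d difference was not tested. Of 13 heart muscle genes, the medians were 0.24 and 1.23.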
